A study of Arabidopsis thaliana with 4 samples.

Results

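The mitochondrial genome of Arabidopsis thaliana carries a small set of named genes, and 41 of its loci were followed here in a mutant of the TRIC proteins. They are 14 loci of complex I, 1 of complex III, 3 of complex IV, 6 of the ATP synthase, 5 of cytochrome c maturation, 7 of mitochondrial ribosomal proteins, the maturase matR, the transporter gene mttB and 3 ribosomal RNAs. They are given by a list of locus identifiers that uses no measured value, although it was drawn up with earlier results of these data known, and all 41 were found among the 34133 loci of each table, 146 of which are mitochondrial. Each locus had a gene name set beforehand and was matched to the mitochondrial annotation of RefSeq TAIR10.1. An identical span gave the same name for 20 loci. Another 18 were matched by their place beside such a match, and rrn26, atp9 and the second atp6 copy as the 3 genes left over. Those later steps looked only for genes of the name set beforehand, so they are no check of it. The last 3 matches are the least certain.

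Wild-type plants of accession Col-0 were compared with a double mutant of TRIC1 and TRIC2, called the dko here, in rosette leaves at 4 weeks and in seedlings at 2 weeks. Stratification was at 4 °C for 2 days in all 4 groups. Growth was at 22 °C in a photoperiod of 16 h, with a move to soil on day 5 for the plants that gave rosettes. The 4 groups have 3 replicates each by their labels, which leave unsaid if a replicate was a plant of its own, a pool or a repeat of the same RNA; the p-values therefore cover only that spread, which may be technical. The authors deposited 1 FPKM value per locus and group, pooled over replicates, so no replicate values, standard deviations or depths can be given. FPKM is a level per transcript length and per sequencing effort, which serves to compare loci within a table. Such a comparison is uncertain for loci whose reads also match another place in the genome. Among these are the 26 named loci with a full copy on chromosome 2, described below, whose levels cannot be compared as such. The only measure of error is Cuffdiff's q-value, read at 0.05. High and low light, also named in the design text, were not analysed here.

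The labels were checked against marker genes and the targeted genes. In the authors' deposited tables TRIC1 went from 34.7 to 10.7 FPKM in rosettes and from 33.9 to 16.2 FPKM in seedlings, and TRIC2 from 17.5 to 0.069 and from 17.7 to 0.366 FPKM, all lower with q under the threshold except TRIC2 in rosettes (q = 0.146). Where the mutations lie in these genes is not known here. The 4 leaf markers summed to 16750 FPKM in wild-type and 8104 FPKM in dko rosettes, with 2 of them lower, and to 34312 and 15590 FPKM in seedlings, with 3 lower. The 5 root markers summed to at most 0.20 FPKM in rosettes, where 3 were listed at 0 in wild type, and to 2.04 and 2.03 FPKM in seedlings. Root markers in seedlings were thus low, with CASP1 the highest at 1.15 FPKM in wild type, and none was listed at 0. The part of the leaf marker shift in the results below was not tested. In bulk RNA, a change in the number of cells or mitochondria and a change in the RNA of each cannot be told apart.

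Plant mitochondria keep genes for core subunits of the respiratory complexes, while most other subunits are encoded in the nucleus and imported. Mitochondrial transcripts are read by nuclear-encoded phage-type RNA polymerases, many are spliced, edited and trimmed at their ends, and their amount depends strongly on RNA turnover. Several complex I genes are broken into pieces that are transcribed apart and joined by trans-splicing, so each piece is a locus of its own. TRIC1 and TRIC2 are membrane proteins of the mitochondrial envelope linked to tRNA import.

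Every protein-coding mitochondrial gene that passed the test was higher in the dko, in rosettes and in seedlings, with a larger median ratio in rosettes, a difference between tissues that was not tested. Of the 41 loci, 33 were tested in rosettes: 16 rose, 1 fell and 16 did not pass, against 7.81% of all tested loci called higher and 8.94% called lower. In seedlings 33 were tested as well: 16 rose, 0 fell and 17 did not pass, against a background of 8.4% higher and 8.14% lower. The median log2 ratio of dko over wild type was 0.85 in rosettes and 0.45 in seedlings, where the median over all tested loci was 0.01 in each tissue. The ratio was above 1 for 29 of 33 loci in rosettes and 30 of 33 in seedlings, compared with 51.2% and 51.5% of all tested loci. Rises of at least 2-fold were found for 9 of 33 loci in rosettes, against 3.96% of all tested loci, and for 0 of 33 in seedlings, against 1.23%. The 8 loci without a test in each tissue had values under 1 FPKM in both groups, so these counts do not describe all 41.

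**Figure D1:**
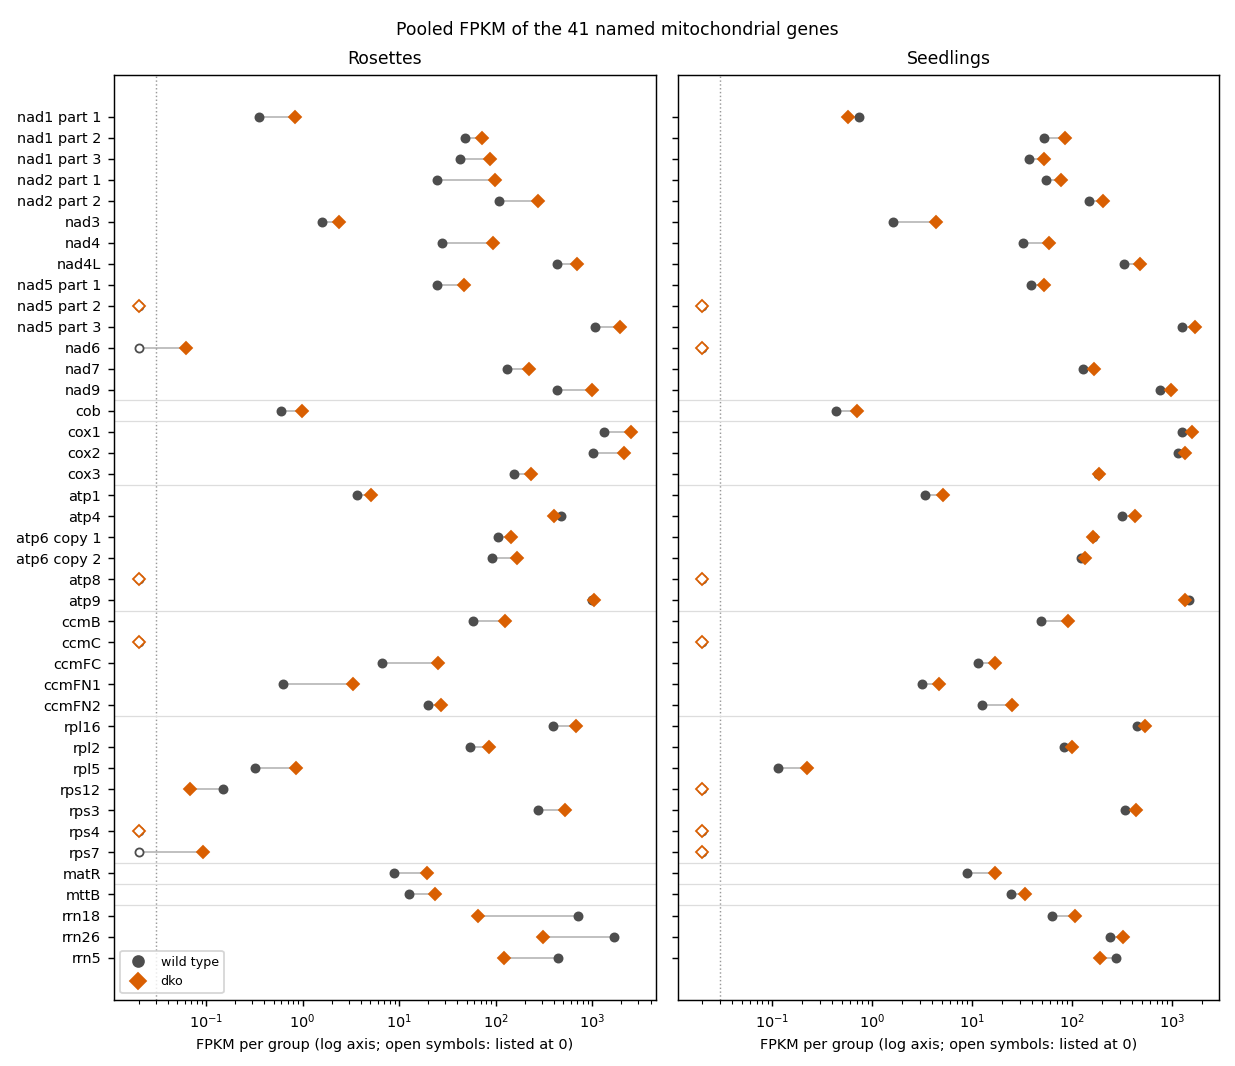
Pooled FPKM of each of the 41 loci in wild type (circles) and dko (diamonds), on a log axis, for rosettes and seedlings, with loci grouped by function and open symbols for values listed at 0. The dko symbol lies to the right of the wild-type symbol for most protein-coding loci, while the 3 rRNA loci at the bottom lie to its left in rosettes.

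Complex I, the NADH dehydrogenase that feeds electrons into the respiratory chain, is the largest class, with 14 of the 41 loci. It also held the largest number of risen loci. In rosettes 8 of 11 tested complex I loci rose with a median log2 ratio of 0.92. In seedlings 8 of 12 rose with a median of 0.48, and none fell in either tissue. These shares are 72.7% and 66.7%, against 7.81% and 8.4% of all tested loci. For cytochrome c maturation the share was 75% in each tissue. The locus nad2 part 1 (ATMG00285), which holds the first exons of a membrane arm subunit, went from 24.8 to 97.4 FPKM in rosettes (log2 ratio 1.97, q = 0.000899) and in seedlings from 54.5 to 78.1 FPKM (log2 ratio 0.52, q = 0.00408) in the authors' deposited tables. Its other piece, nad2 part 2 (ATMG01320), went from 106.7 to 274.8 FPKM in rosettes (log2 ratio 1.36, q = 0.000899) and in seedlings from 147.9 to 204.5 FPKM (log2 ratio 0.47, q = 0.00309) in the authors' deposited tables. Both pieces of this trans-spliced gene were thus higher in the dko of each tissue. Each piece has a near-exact copy on chromosome 2. The locus over the copy of part 1, AT2G07733, was at 72.1 and 176 FPKM in rosettes, per the authors' deposited table. No such locus was matched to part 2, so the levels of the pieces cannot be compared as such. The table locus of part 2 is shared with ATMG01330.

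The membrane arm gene nad4 (ATMG00580), with 4 coding exons at chrM:207580-215562 on the minus strand of RefSeq TAIR10.1, went from 28.0 to 93.0 FPKM in rosettes (log2 ratio 1.73, q = 0.000899) and in seedlings from 32.3 to 58.7 FPKM (log2 ratio 0.86, q = 0.000768) in the authors' deposited tables. The peripheral arm gene nad9 (ATMG00070) rose from 426 to 984 FPKM in rosettes (log2 ratio 1.21, q = 0.000899), and its values of 752 and 968 FPKM in seedlings did not pass (log2 ratio 0.37, q = 0.07), per the authors' deposited tables. Of the other peripheral arm gene of the set, nad7 (ATMG00510), the authors' deposited tables give 131 and 222 FPKM in rosettes (log2 ratio 0.77, q = 0.0143) and 128 and 165 FPKM in seedlings (log2 ratio 0.36, q = 0.0334). The dko value of nad7 was the higher in each tissue. The small membrane subunit nad4L (ATMG00650) rose from 427 to 690 FPKM (log2 ratio 0.69, q = 0.0114) and in seedlings from 330 to 482 FPKM (log2 ratio 0.54, q = 0.000768) in the authors' deposited tables.

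The 3 pieces of nad5, another membrane arm subunit, were listed at different values. Part 3 (ATMG00060) was among the highest protein-coding loci, with 1072 and 1937 FPKM in rosettes (log2 ratio 0.85, q = 0.0102) and 1261 and 1690 FPKM in seedlings (log2 ratio 0.42, q = 0.0447) in the authors' deposited tables. Part 1 (ATMG00513) was listed at 24.7 and 46.7 FPKM in rosettes (log2 ratio 0.92, q = 0.000899). In seedlings it was at 38.5 and 52.7 FPKM (log2 ratio 0.45, q = 0.00588), per the authors' deposited tables. Part 1 has a near-exact copy on chromosome 2, whose locus AT2G07711 was at 202 and 374 FPKM in rosettes, and part 3 has none, so the levels of these pieces cannot be compared as such. Part 2 (ATMG00665) is a single exon of 22 bp, listed at 0 in all 4 groups, and its whole sequence is printed because a locus this short is no base for a level. It lies at chrM:360107-360128 on the plus strand of RefSeq TAIR10.1.
nad5 part 2: gatatgatgattggtttaggta

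The pieces of nad1 gave fewer calls. Part 2 (ATMG01120) went from 48.1 to 72.3 FPKM in rosettes without passing (log2 ratio 0.59, q = 0.172) and rose from 52.5 to 84.8 FPKM in seedlings (log2 ratio 0.69, q = 0.00968), per the authors' deposited tables. Part 3 (ATMG00516), whose table locus also contains matR, did not pass in either tissue (log2 ratios 1.06 and 0.49, q = 0.138 and 0.357) in the authors' deposited tables. Part 1 (ATMG01275) stayed under 1 FPKM in every group. The remaining complex I genes were low on the mitochondrial locus: nad3 (ATMG00990), whose table locus holds 2 more genes, was at 1.57 and 2.40 FPKM in rosettes (q = 0.901) and 1.61 and 4.33 FPKM in seedlings (q = 0.638) in the authors' deposited tables, and nad6 (ATMG00270) was at most 0.0616 FPKM.

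Complexes III and IV carry electrons from ubiquinol to oxygen. The core subunit gene cox2 (ATMG00160) rose from 1013 to 2131 FPKM in rosettes (log2 ratio 1.07, q = 0.00646), and stood at 1146 and 1347 FPKM in seedlings, where it did not pass (log2 ratio 0.23, q = 0.383), per the authors' deposited tables. The catalytic subunit gene cox1 (ATMG01360), the highest protein-coding locus of the set in wild-type rosettes, had values of 1319 and 2514 FPKM there (log2 ratio 0.93, q = 0.0725) and 1261 and 1599 FPKM in seedlings (log2 ratio 0.34, q = 0.354) in the authors' deposited tables. A nearly 2-fold difference between pooled values of this highly expressed gene therefore did not pass Cuffdiff's test. For cox3 (ATMG00730) the authors' deposited tables give 154 and 233 FPKM in rosettes (log2 ratio 0.60, q = 0.0746) and 181 and 186 FPKM in seedlings (log2 ratio 0.03, q = 0.919). Cytochrome b, encoded by cob (ATMG00220), was at 0.599 and 0.977 FPKM in rosettes and 0.438 and 0.702 FPKM in seedlings on its mitochondrial locus.

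The ATP synthase genes had the lowest median ratio of the protein-coding classes in both tissues. Of 5 tested, 1 rose in rosettes (median log2 ratio 0.44) and 2 rose in seedlings (median 0.11). The gene atp9 (ATMG01080), which encodes the ring subunit of the membrane rotor, was at 996 and 1036 FPKM in rosettes (log2 ratio 0.06, q = 0.924) and 1492 and 1351 FPKM in seedlings (log2 ratio -0.14, q = 0.618) in the authors' deposited tables. The peripheral stalk gene atp4 (ATMG00640) was the only tested protein-coding locus with a ratio under 1 in rosettes, 475 against 404 FPKM (log2 ratio -0.23, q = 0.595), and it rose in seedlings from 320 to 423 FPKM (log2 ratio 0.40, q = 0.0134), per the authors' deposited tables. The catalytic head gene atp1 (ATMG01190) had low values, 3.64 and 5.06 FPKM in rosettes (log2 ratio 0.47, q = 0.236) and 3.39 and 5.17 FPKM in seedlings (log2 ratio 0.61, q = 0.013) in the authors' deposited tables.

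The proton channel subunit is encoded by 2 copies of atp6. Copy 2 (ATMG01170) rose from 90.6 to 167 FPKM in rosettes (log2 ratio 0.88, q = 0.00164) and had 124 and 134 FPKM in seedlings (log2 ratio 0.11, q = 0.656), while copy 1 (ATMG00410) did not pass in rosettes with 105 and 142 FPKM (log2 ratio 0.44, q = 0.175) or in seedlings with 162 and 164 FPKM (log2 ratio 0.02, q = 0.964), per the authors' deposited tables. The difference between the copies was not tested. In the reference the genes of the copies are 1158 and 1050 bp long and are identical over their last 761 bp. Within the genes only 397 and 289 bp at their starts tell them apart, and reads from the shared end cannot be assigned to either. The table loci are longer, with 1321 and 1385 bp, and their further bases were not compared. Copy 1 also has an exact copy on chromosome 2. The point where they meet is printed, with the shared bases in capitals, from the RefSeq TAIR10.1 mitochondrion at chrM:49790-49839 on the plus strand and chrM:265208-265257 on the minus strand.
atp6 copy 1: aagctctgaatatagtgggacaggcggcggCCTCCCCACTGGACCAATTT
atp6 copy 2: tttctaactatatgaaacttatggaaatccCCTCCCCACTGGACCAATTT

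Cytochrome c maturation genes, whose products deliver and attach haem to cytochromes c, had the highest median ratio of the classes with several tested loci. In rosettes 3 of 4 tested rose (median log2 ratio 1.50) and in seedlings 3 of 4 rose (median 0.72). The haem lyase gene ccmFN1 (ATMG00830) had the largest ratio of all tested named loci in rosettes, rising from 0.630 to 3.34 FPKM (log2 ratio 2.41, q = 0.00164), and its 3.18 and 4.62 FPKM in seedlings did not pass (log2 ratio 0.54, q = 0.116), per the authors' deposited tables. This ratio rests on a wild-type value under 1 FPKM. Another haem lyase gene, ccmFC (ATMG00180), rose from 6.59 to 24.9 FPKM (log2 ratio 1.92, q = 0.000899) and in seedlings from 11.5 to 16.9 FPKM (log2 ratio 0.56, q = 0.00141) in the authors' deposited tables. The transporter subunit gene ccmB (ATMG00110) rose from 58.5 to 124 FPKM (log2 ratio 1.08, q = 0.000899) and in seedlings from 49.5 to 91.5 FPKM (log2 ratio 0.89, q = 0.000768) in the authors' deposited tables. For ccmFN2 (ATMG00960) the call was in seedlings, from 12.7 to 24.9 FPKM (log2 ratio 0.98, q = 0.000768), and 19.8 and 27.0 FPKM in rosettes did not pass (log2 ratio 0.45, q = 0.24), per the authors' deposited tables. The locus of ccmC (ATMG00900) was listed at 0 in all 4 groups.

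Among ribosomal protein genes only rpl2 (ATMG00560) passed, rising from 53.5 to 84.6 FPKM in rosettes (log2 ratio 0.66, q = 0.0183), with 83.8 and 101 FPKM in seedlings (log2 ratio 0.27, q = 0.14), per the authors' deposited tables. The overlapping genes rps3 (ATMG00090) and rpl16 (ATMG00080) share a table locus; rps3 had 275 and 517 FPKM in rosettes (log2 ratio 0.91, q = 0.0614) and 336 and 432 FPKM in seedlings (log2 ratio 0.36, q = 0.224) in the authors' deposited tables. The authors' deposited tables give rpl16 at 390 and 683 FPKM (log2 ratio 0.81, q = 0.423) and 450 and 543 FPKM (log2 ratio 0.27, q = 0.668). How fragments were split between them is not known. The loci of rpl5 (ATMG00210), rps4 (ATMG00290), rps7 (ATMG01270) and rps12 (ATMG00980) lay under 1 FPKM in every group.

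The maturase gene matR (ATMG00520), which sits in an intron of nad1 and acts in intron splicing, rose from 8.87 to 19.6 FPKM in rosettes (log2 ratio 1.14, q = 0.000899) and in seedlings from 8.93 to 16.9 FPKM (log2 ratio 0.92, q = 0.000768) in the authors' deposited tables. The gene mttB (ATMG00570), related to the bacterial twin-arginine transporter subunit TatC, rose from 12.5 to 23.4 FPKM in rosettes (log2 ratio 0.90, q = 0.00403) and in seedlings from 24.4 to 34.0 FPKM (log2 ratio 0.48, q = 0.00929), per the authors' deposited tables. Neighbours in the table are given by example, and atp4 and nad4L lie 266 bp apart. Their log2 ratios were -0.23 and 0.69 in rosettes, where atp4 did not pass (q = 0.595), and 0.40 and 0.54 in seedlings. Another pair, rpl2 and mttB, lies 145 bp apart, with 0.66 and 0.90 in rosettes and 0.27 and 0.48 in seedlings. Differences within these pairs were not tested.

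**Figure D2:**
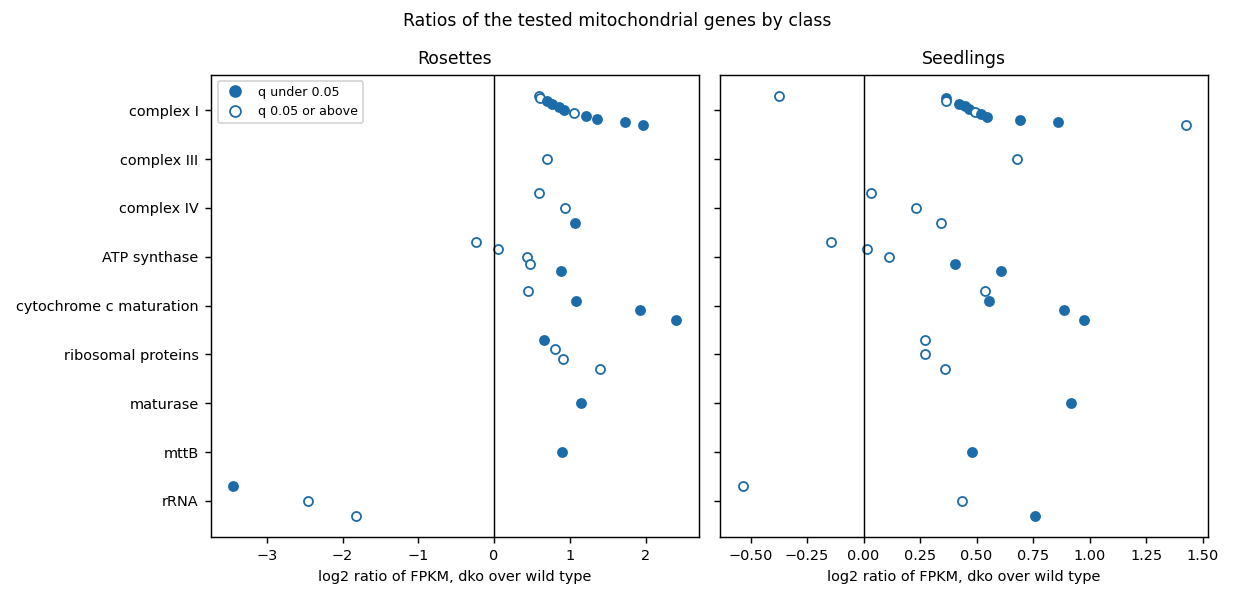
Log2 ratio of FPKM, dko over wild type, of each tested locus by class in rosettes and seedlings; the horizontal axes differ, filled points have q under 0.05 and open points do not. Complex I and cytochrome c maturation lie to the right of 0, except 1 open complex I point in seedlings, with most points filled in both tissues; the ATP synthase class has the protein-coding median nearest to 0 in each tissue (0.44 and 0.11), and the 3 rRNA points lie to the left in rosettes.

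The mitochondrial ribosomal RNAs took another course in rosettes, where all 3 had ratios under 1 and 1 of them passed. In these libraries ribosomal RNA was depleted, so the values measure what depletion left. The small subunit RNA rrn18 (ATMG01390), 1935 bp long at chrM:126289-128223 on the minus strand of RefSeq TAIR10.1, fell in rosettes from 710 to 65.3 FPKM (log2 ratio -3.44, q = 0.000899) and rose in seedlings from 63.2 to 107 FPKM (log2 ratio 0.76, q = 0.000768), per the authors' deposited tables. The large subunit RNA rrn26 (ATMG00020) did not pass, with 1685 and 308 FPKM in rosettes (log2 ratio -2.45, q = 0.0514) and 239 and 324 FPKM in seedlings (log2 ratio 0.43, q = 0.0647) in the authors' deposited tables. Nor did rrn5 (ATMG01380), with 436 and 123 FPKM (log2 ratio -1.83, q = 0.104) and 276 and 191 FPKM (log2 ratio -0.53, q = 0.654) in the authors' deposited tables. In rosettes all 3 loci were lower in the dko pool than in the wild-type pool, with 1 call among them. Of 7 nuclear and chloroplast rRNA loci, 4 were tested in rosettes and all 4 fell, among them an 18S rRNA locus (AT3G41768) from 1426 to 8.41 FPKM and the chloroplast rrn23S from 1249 to 105 FPKM, per the authors' deposited table. In seedlings 6 were tested and 4 fell, and rrn4.5S rose from a value listed at 0. Residual rRNA of nuclear and organelle genomes thus differed between the wild-type and dko pools, in mixed directions in seedlings. Pooled values cannot separate an effect of genotype from how well depletion worked in each pool. The part of residual rRNA in the other results was not tested. Without the 3 rRNA loci, 16 protein-coding loci rose and 0 fell in rosettes (median log2 ratio 0.89), and 15 rose and 0 fell in seedlings (median 0.46), of 30 tested in each.

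**Figure D3:**
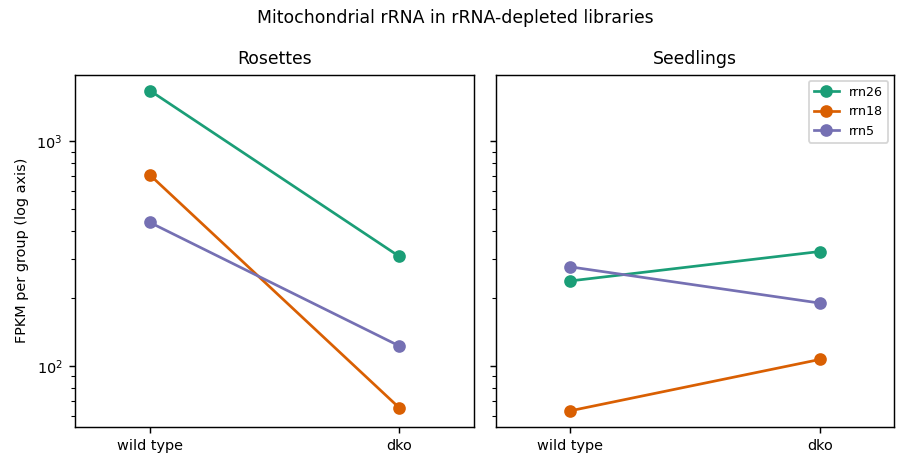
Pooled FPKM of rrn26, rrn18 and rrn5 in wild type and dko, on a log axis shared by the rosette and seedling panels; lines join the groups of a tissue and carry no error, as there are no replicate values. All 3 lines descend in rosettes, and in seedlings only that of rrn5 does.

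Chromosome 2 of the Arabidopsis nucleus holds a large insertion of mitochondrial DNA near its centromere, and this bears on how the levels above can be read. A search of TAIR10.1 with blastn (at least 99% identity over at least 100 bp) found a copy on chromosome 2 covering at least 90% of the gene for 26 of the 41 loci, 15 of them without a single difference. It is not known here how reads matching both places were assigned, so the level of such a locus is uncertain. The gene cob, an uninterrupted reading frame of 1182 bp at chrM:181677-182858, shows an exact copy: its first 60 bases read the same on the mitochondrial minus strand at chrM:182799-182858 and on the plus strand at chr2:3450863-3450922.
cob, mitochondrion: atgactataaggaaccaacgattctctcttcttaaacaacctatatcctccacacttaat
cob copy, chromosome 2: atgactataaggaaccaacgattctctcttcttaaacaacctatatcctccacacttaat

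On the mitochondrial locus cob was under 1 FPKM in every group, but the chromosome 2 locus over its copy, AT2G07727, was at 726 and 1412 FPKM in rosettes (log2 ratio 0.96, q = 0.0231) and 683 and 864 FPKM in seedlings (log2 ratio 0.34, q = 0.235) in the authors' deposited tables. A near-exact copy is that of ccmFN1, an uninterrupted reading frame of 1149 bp at chrM:316013-317161, which differs from the mitochondrial gene by a single substitution, C54T, with positions counted from 1 at the start of the gene and the mitochondrial base given first. The 41 bases around it are printed with the differing base in capitals, from chrM:316046-316086 and chr2:3297923-3297963, both on the plus strand.
ccmFN1, mitochondrion: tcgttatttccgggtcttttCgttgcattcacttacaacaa
ccmFN1 copy, chromosome 2: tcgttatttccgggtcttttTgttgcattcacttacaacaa

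The chromosome 2 locus over ccmFN1, AT2G07783, rose from 19.7 to 50.1 FPKM in rosettes (log2 ratio 1.34, q = 0.000899) and in seedlings from 44.2 to 67.1 FPKM (log2 ratio 0.60, q = 0.000768) in the authors' deposited tables. The copy of matR differs by 5 substitutions, G55A, T229A, C241T, A731G and T962A, counted in the same way. The chromosome 2 locus AT2G07712, which also lies over the copy of nad1 part 3, rose from 80.5 to 167 FPKM (log2 ratio 1.06, q = 0.000899) and in seedlings from 91.2 to 142 FPKM (log2 ratio 0.64, q = 0.000768) in the authors' deposited tables.

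In all, 22 chromosome 2 loci lay over the copies of 23 named loci, sharing at least 50% of the joint span. In wild-type rosettes the chromosome 2 locus was the higher of the pair in 23 of 23 cases and in wild-type seedlings in 22 of 23. Of these 22 loci 15 rose and 0 fell in rosettes (median log2 ratio 0.94), and 12 rose and 0 fell in seedlings (median 0.59). Among all tested nuclear loci 7.52% were called higher and 8.98% lower in rosettes, and 8.22% and 8.17% in seedlings. Genes listed at or near 0 on the mitochondrion had substantial values there. For nad6 the partner AT2G07731 had 493 and 939 FPKM in rosettes (log2 ratio 0.93, q = 0.00551) and 734 and 931 FPKM in seedlings (log2 ratio 0.34, q = 0.128) in the authors' deposited tables. For rps4 the partner AT2G07734 rose from 65.6 to 196 FPKM (log2 ratio 1.58, q = 0.000899) and in seedlings from 123 to 195 FPKM (log2 ratio 0.67, q = 0.000768) in the authors' deposited tables. For ccmC the partner AT2G07771, which shares its span with AT2G07742, rose from 38.1 to 85.5 FPKM (log2 ratio 1.16, q = 0.000899) and in seedlings from 28.8 to 63.3 FPKM (log2 ratio 1.14, q = 0.000768) in the authors' deposited tables.

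The partners of nad3 and rps12, which are 45 bp apart on the mitochondrion, also moved up. For nad3, AT2G07751 rose from 134 to 287 FPKM (log2 ratio 1.10, q = 0.000899) and in seedlings from 185 to 313 FPKM (log2 ratio 0.76, q = 0.000768) in the authors' deposited tables. For rps12, AT2G07675 rose from 202 to 374 FPKM in rosettes (log2 ratio 0.89, q = 0.000899) and had 264 and 334 FPKM in seedlings (log2 ratio 0.34, q = 0.053) in the authors' deposited tables. None of the chromosome 2 loci over ATP synthase genes passed the test in either tissue. In the authors' deposited tables AT2G07707, over atp8 (ATMG00480), was at 1562 and 1566 FPKM in rosettes (log2 ratio 0.00, q = 0.996) and 2296 and 2229 FPKM in seedlings (log2 ratio -0.04, q = 0.912). Over atp9, AT2G07671 had 6261 and 6823 FPKM in rosettes (log2 ratio 0.12, q = 0.863), and over atp1, AT2G07698 had 1246 and 1562 FPKM (log2 ratio 0.33, q = 0.666) in the authors' deposited table.

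**Figure D4:**
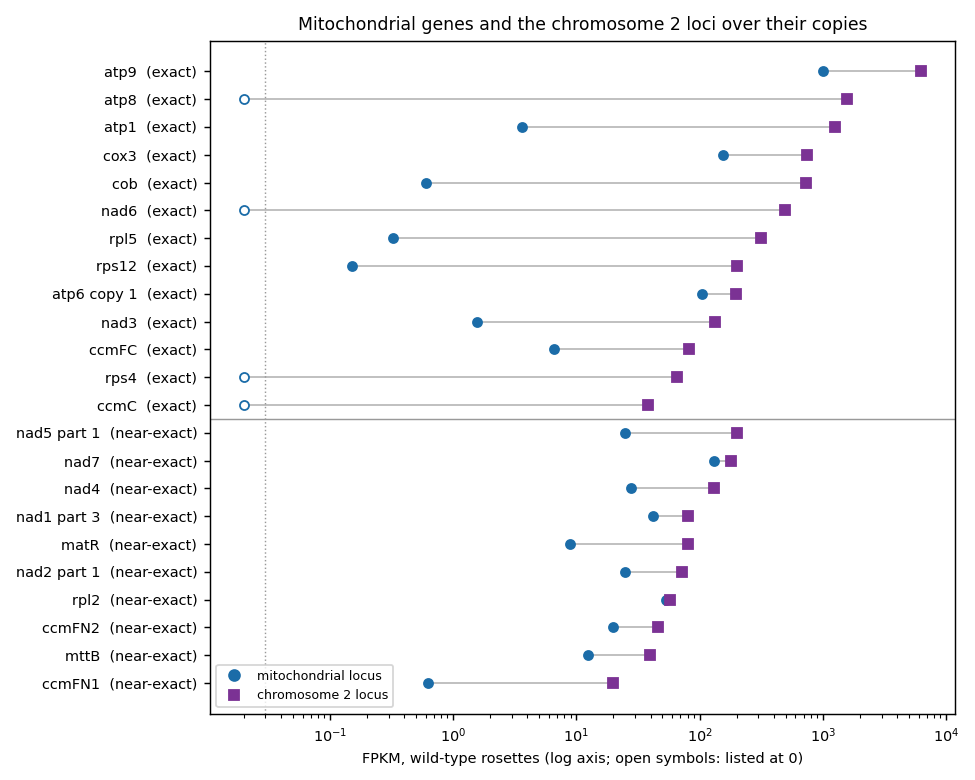
FPKM in wild-type rosettes, on a log axis, of 23 mitochondrial loci (circles, open where listed at 0) and of the chromosome 2 loci over their copies (squares), with exact copies above the line and near-exact copies below. The chromosome 2 locus is the higher of every pair. Among exact copies the gap is wide for cob and narrow for atp6 copy 1. For loci listed at 0, such as nad6 and atp8, the width of the gap has no meaning.

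Levels on the mitochondrial loci can be set beside the kind of copy. Protein-coding loci with an exact copy had a median of 0.354 FPKM in wild-type rosettes (15 loci, 8 tested), those with a near-exact copy 24.8 FPKM (11 loci, 11 tested), and those without a full copy 408 FPKM (12 loci, 11 tested). In wild-type seedlings these medians were 0.438, 36.8 and 333 FPKM. The exact-copy class was itself divided. In 10 loci the table span is within 2 bp of that of the reference gene. Their median was 0.0755 FPKM in wild-type rosettes and 0 in wild-type seedlings. The other 5, with a table span longer by more than that (cox3, atp6 copy 1, atp9, ccmFC and nad3), had 104.9 and 162 FPKM. Loci without a full copy can still be copied in part: 72.5% of atp6 copy 2, 40.6% of rpl16 and 5.10% of rps3 are found on chromosome 2, and atp6 copy 2 also shares its end with copy 1. Among their 11 tested protein-coding loci 6 rose and 0 fell in rosettes (median log2 ratio 0.88), namely nad5 part 3, nad9, cox2, nad4L, atp6 copy 2 and ccmB. In seedlings 5 of 11 rose and 0 fell (median 0.37), namely nad5 part 3, nad4L, nad1 part 2, atp4 and ccmB. With a near-exact copy 9 of 11 rose in rosettes (median 1.06) and 8 of 11 in seedlings (median 0.49), and with an exact copy 1 of 8 and 2 of 8 rose (medians 0.60 and 0.29). These differences between kinds of copy are given as counts and were not tested.

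The calls of the tissues were set side by side. Of 16 loci that rose in each tissue, 11 rose in both, which is 68.8% of each list: nad2 parts 1 and 2, nad4, nad4L, nad5 parts 1 and 3, nad7, ccmB, ccmFC, matR and mttB. Among all loci 725 were called higher in both tissues, which is 50.6% of those higher in rosettes and 43.7% of those higher in seedlings; the difference from the named loci was not tested. In rosettes nad9, cox2, rpl2, ccmFN1 and atp6 copy 2 passed and in seedlings they did not, and the reverse held for atp4, atp1, ccmFN2 and nad1 part 2. Of 29 protein-coding loci tested in both tissues, 27 had ratios above 1 in both, 24 had the larger ratio in rosettes and 5 in seedlings, with a median difference of 0.43 in log2 ratio. Across these 29 loci Pearson's r between the log2 ratios was 0.20, as a description only, since loci of a tissue share the same libraries and some are pieces of the same gene. The tables were normalised separately and hold no replicate values, so the difference between tissues was not tested.

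**Figure D5:**
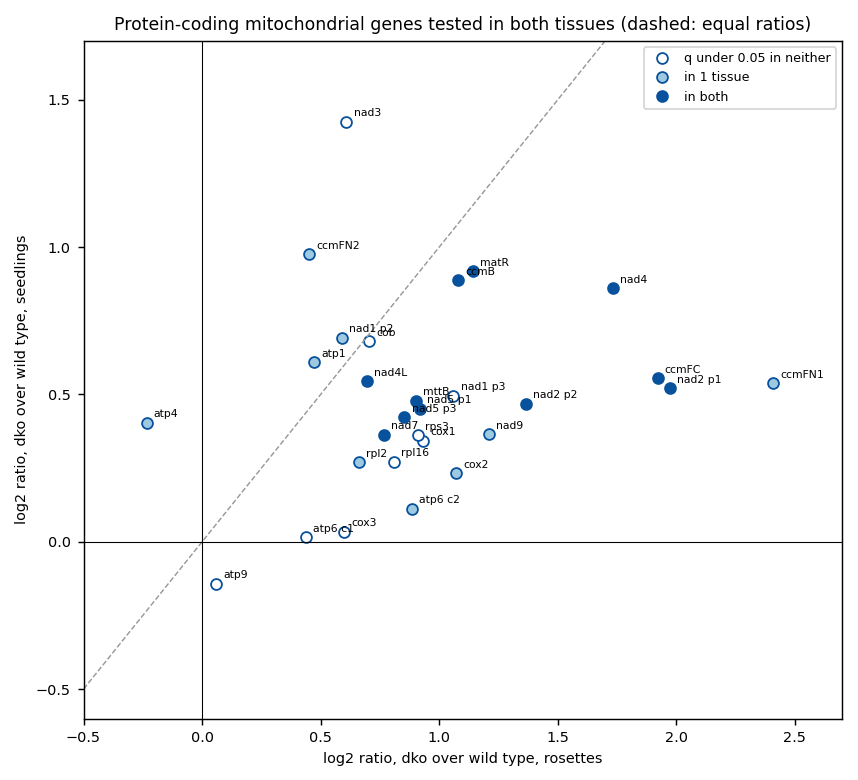
Log2 ratio of dko over wild type in rosettes (horizontal) and seedlings (vertical) for the 29 protein-coding loci tested in both, shaded by the number of tissues with q under 0.05; p and c mark a piece or copy of a gene. Of these points, 24 lie below the dashed line of equal ratios and 5 above it, among them ccmFN2, atp4 and nad3.

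The remaining loci of the mitochondrial genome were also called higher more often than lower. Of 105, 43 were tested in rosettes, where 25 rose and 1 fell (median log2 ratio 1.27), and 45 in seedlings, where 19 rose and 0 fell (median 0.68). Among chloroplast loci 25 of 89 tested rose and 5 fell in rosettes (median 0.49), and 14 of 88 rose and 8 fell in seedlings (median 0.06). Of all tested loci 7.81% were called higher and 8.94% lower in rosettes, and 8.4% and 8.14% in seedlings. The median of nuclear loci was 0.01 in each tissue.

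Nuclear genes for related functions are given beside all tested nuclear loci, of which 7.52% were called higher and 8.98% lower in rosettes, and 8.22% and 8.17% in seedlings. These lists were drawn up with earlier results of these data known. Of 34 listed nuclear genes for subunits of complexes I, III and IV, cytochrome c and the ATP synthase, all tested, 0 rose and 1 fell in rosettes, and 2 rose (5.88%) and 0 fell in seedlings. In the authors' deposited tables the subunit gene AT5G52840 of complex I fell in rosettes from 54.0 to 32.8 FPKM (log2 ratio -0.72, q = 0.0253), AT5G11770, also of complex I, rose in seedlings from 36.2 to 49.0 FPKM (log2 ratio 0.44, q = 0.0109), and the ATP synthase beta subunit gene AT5G08690 from 109 to 141 FPKM (log2 ratio 0.36, q = 0.0494). None of 3 nuclear cytochrome c maturation genes and none of 3 genome maintenance genes passed in either tissue by Cuffdiff's q-value.

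Of the nuclear genes listed for mitochondrial transcription and RNA turnover, 3 of 4 rose in rosettes and 4 of 4 in seedlings, against 7.52% and 8.22% of nuclear loci. RPOTm (AT1G68990), a mitochondrial RNA polymerase, rose from 4.82 to 8.79 FPKM in rosettes (log2 ratio 0.87, q = 0.025) and in seedlings from 5.35 to 8.07 FPKM (log2 ratio 0.59, q = 0.00504) in the authors' deposited tables. RPOTmp (AT5G15700), a polymerase sent to mitochondria and chloroplasts, rose from 2.95 to 5.46 FPKM (log2 ratio 0.89, q = 0.00291) and in seedlings from 2.24 to 4.37 FPKM (log2 ratio 0.96, q = 0.000768) in the authors' deposited tables. The mitochondrial polynucleotide phosphorylase gene AT5G14580, which acts in RNA degradation and processing, rose from 1.23 to 4.79 FPKM (log2 ratio 1.96, q = 0.000899) and in seedlings from 3.08 to 7.62 FPKM (log2 ratio 1.31, q = 0.000768) in the authors' deposited tables. The exoribonuclease gene AT5G02250 rose in seedlings (log2 ratio 0.40, q = 0.013) and did not pass in rosettes (log2 ratio 0.29, q = 0.394), per the authors' deposited tables.

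Of 14 intron splicing factors 2 rose in rosettes (14.3%, against 7.52% of nuclear loci) and 4 in seedlings (28.6%, against 8.22%), and 0 fell. In rosettes these were the RNA helicase PMH1 (log2 ratio 0.98, q = 0.0193) and the nuclear maturase AT5G46920 (log2 ratio 0.73, q = 0.00935) in the authors' deposited table. In seedlings they were PMH1 (log2 ratio 1.28, q = 0.000768), its relative PMH2 (log2 ratio 0.90, q = 0.000768), and the maturases nMAT1 (log2 ratio 0.68, q = 0.00408) and AT5G04050 (log2 ratio 0.66, q = 0.016), per the authors' deposited table. Among the mitochondrial genes themselves, protein-coding loci of genes with introns rose in 9 of 12 tested cases in rosettes and 8 of 13 in seedlings (median log2 ratios 0.99 and 0.45), and those of genes without introns in 7 of 18 and 7 of 17 (medians 0.76 and 0.48). The difference between genes with and without introns was not tested.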

How the data were processed

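Total RNA went into stranded libraries with a kit that removes plant ribosomal RNA, per the labels' protocols. The submitters' processing notes name the build TAIR10 and, all as 2.2.0, Bowtie2, TopHat2, Cufflinks and Cuffdiff. Strand use in counting, Cuffdiff's normalization and the handling of reads with several matches are not given in these sources. The authors deposited 1 table per tissue with FPKM pooled per group, the log2 ratio of dko over wild type, a test score (not printed here), and p-values and q-values of Cuffdiff, per the file headers. Recomputed log2 ratios differed by at most 1.39e-05 and recomputed Benjamini-Hochberg q-values by at most 5.24e-07. The smallest deposited p-value is 5e-05.

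Calls are deposited q-values under 0.05 over all tested loci (18338 in rosettes, 19747 in seedlings). Values of exactly 0 can be failed estimates. Depth is unknown. Columns left without a meaning numbered 0. The adjustment of p-values and the ratio were tested on simulated data. The text names all 41 loci, the chromosome 2 loci over copies as examples, and up to 4 genes past q 0.05 of each related nuclear list; examples among chromosome 2 and other rRNA loci were chosen after their values were seen. The 41 loci and all lists were chosen with earlier results of these data known. Mitochondrial coordinates of the tables belong to another sequence than that of the reference (367808 bp), and none were converted; printed coordinates are those of RefSeq TAIR10.1. Software was python 3.11.15, pandas 2.3.3 and blastn 2.17.0. Alternatives were q of 0.01 and 0.1, a 2-fold minimum, 10 FPKM, pseudocounts of 1 and 0.1, recentring, q without other organelle loci, and subsets of the loci.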

Additional observations from a re-analysis of the deposited data

Results flagged for a closer look

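The mitochondrial small subunit RNA rrn18 was called in opposite directions in the tissues, with a log2 ratio of dko over wild type of -3.44 in rosettes and 0.76 in seedlings in the authors' deposited tables. Both calls pass q 0.05, and the difference between the tissues was not tested. The wild-type rosette pool had 710 FPKM and the other 3 pools 63.2 to 107 FPKM, in tables normalised separately from libraries depleted of ribosomal RNA.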

How the results depend on the processing

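Over 10 alternatives for each count, the number of named loci called higher was 6 to 19 in rosettes and 0 to 18 in seedlings, against 16 in each. With a 2-fold minimum 9 remained in rosettes and 0 in seedlings. Without the loci with a full copy on chromosome 2, an alternative chosen after seeing the data, 6 were higher in each tissue. The number lower in rosettes was 1, and it was 2 at q 0.1 and 0 with ribosomal RNA left out. In seedlings no called locus reached 2-fold, and the largest log2 ratio among them was 0.98 (ccmFN2). In each tissue most of the loci called higher have a full copy on chromosome 2, so their read assignment is uncertain. In seedlings 0 were lower under all 10. Over 9 alternatives each, the median log2 ratio lay between 0.77 and 0.89 in rosettes and between 0.38 and 0.46 in seedlings. No paired analysis was possible because the tables hold 1 pooled value per group, and for the same reason no replicate could be left out. Depth is unknown, so loci listed at 0 or under 1 FPKM carry no statement about expression.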
